A study of Mus musculus with 8 samples.

Results

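ISG15 is a small ubiquitin-like protein that interferons induce and that cells attach to other proteins, a reaction called ISGylation. Attachment runs along a chain of enzymes, each itself interferon-inducible: an activating enzyme (E1) loads ISG15, a conjugating enzyme (E2) takes it over, a ligase (E3) places it on a lysine of the target, and a protease removes it again. The 5 genes described here are the modifier Isg15, the E1 Uba7, the E2 Ube2l6, the E3 Herc6, which serves as the main ISG15 ligase of the mouse, and the protease Usp18, which also dampens type I interferon receptor signalling. They were chosen by name, as the core of this pathway, from the 53465 genes in the count files, and each symbol matched 1 Ensembl gene.

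The cells were regulatory T cells (Tregs) polarized in culture from CD4+ T cells of spleen and lymph nodes of wild-type C57BL/6 mice, and 4 libraries treated with the inhibitor (FABPi) were set against 4 untreated libraries (control). All cultures received TGF-β at 5 ng/mL, IL-2 at 100 U/mL, stimulating antibodies to CD3 (5 µg/mL, on the plate) and CD28 (0.5 µg/mL), and antibodies against the cytokines IFN-γ, IL-4 and IL-12. They were divided after 72 h and kept with or without 50 µM BMS309403, an inhibitor of fatty acid-binding proteins used in this study against FABP5. The labels give no age, no vehicle, no duration of exposure and no statement that replicates came from separate mice, so a p-value here reflects only how these samples vary, which may be technical, and effects of the compound on FABP5, its other effects and those of a solvent cannot be told apart.

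Total counts ranged from 38.7 to 42.6 M in FABPi and from 32.9 to 44.6 M in control libraries. Of 9 markers of Tregs and T cells, 4 were higher and 3 lower in FABPi libraries (edgeR adjusted p under 0.05), where 18.7% of all tested genes were higher and 18.1% lower. Foxp3, the Treg transcription factor, lay between 1230 and 1260 CPM (counts scaled to library size) in FABPi and between 901 and 1030 CPM in control libraries, and Il2ra, Ikzf2 and Tnfrsf18 also lay higher in every FABPi library than in any control. Parts of the T cell receptor complex lay the other way: Cd3e at 179 to 201 CPM in FABPi against 250 to 276 CPM in control libraries, Cd3g at 168 to 180 against 187 to 215 CPM, and Trac at 406 to 476 against 499 to 515 CPM. Ctla4 and Cd4 overlapped between the groups. Fixed markers of CD8 T cells summed to at most 14.9 and 14.3 CPM in the 2 groups, those of B cells to at most 8.51 and 9.49, and those of erythroid cells to at most 0.356 and 0.565. The sum of 7 myeloid markers lay between 85.1 and 102 CPM in FABPi and between 24.8 and 39.1 CPM in control libraries. Mpeg1 made up most of it (80.6 to 96.7 against 20.3 to 33.8 CPM), and the other 6 each stayed at or below 2.94 CPM in every library. These 6 did not move together. Adgre1 was lower, at 0.0961 to 0.207 CPM in FABPi against 0.315 to 0.713 CPM in control libraries. Itgam held 13 counts in FABPi and 49 in control libraries. Csf1r (32 and 17 counts) and Cd14 (44 and 21) went the other way. In CPM, Itgam, Csf1r, Cd14, Lyz2 and Cd68 each overlapped between the groups. Of the 7 myeloid markers 4 were tested, with 1 called higher and 1 lower. The 5 dendritic cell markers summed to between 7.84 and 11.4 CPM in FABPi and between 3.75 and 4.17 CPM in control libraries, almost all of it Zbtb46, with Siglech, Xcr1 and Clec9a together at 9 counts in FABPi and 11 in control libraries. The 4 NK cell markers summed to between 2.57 and 5.06 CPM and between 1.25 and 2.82 CPM in the same order; this was almost all Eomes, and Ncr1 and Klra8 had no count. The part of other cells in the results below was not tested. In bulk RNA more RNA per cell and more cells of a kind cannot be told apart.

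The 5 genes lie at separate loci in the GRCm38 build. Isg15 (ENSMUSG00000035692) is on chromosome 4, 156199424 to 156200818, minus strand, and is the most compact, with 2 exon blocks. Uba7 (ENSMUSG00000032596) is on chromosome 9, 107975505 to 107984060, and Ube2l6 (ENSMUSG00000027078) is on chromosome 2, 84798828 to 84810335, both on the plus strand. Herc6 (ENSMUSG00000029798) and Usp18 (ENSMUSG00000030107) are both on the plus strand of chromosome 6, at 57581000 to 57664632 and 121245906 to 121270917. Parts of 3 of them are shared with other annotated genes: Gm20661 with Uba7 on the same strand (3.48% of its exon length), Gm45193 with Herc6 on the same strand (13.7%) and Gm44148 with Usp18 on the opposite strand (4.44%). These held 34, 0 and 30 counts over the 4 FABPi libraries and 7, 0 and 23 over the 4 control libraries, against 33694, 8468 and 14228 (FABPi) and 14675, 2610 and 1653 (control) for Uba7, Herc6 and Usp18, and the sources used here do not say how reads in shared exons were assigned.

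Interferon receptors signal through ISGF3, a complex of transcription factors that binds the interferon-stimulated response element in promoters, so the stretches before the gene starts are shown for the members found in the RefSeq promoter table (GRCm38.p6), 4 of 5. Each line holds 150 bases, 5′ to 3′ on the gene's strand, that end at the base before the earlier of the RefSeq and Ensembl starts. For Uba7 that is the Ensembl start, 62 bases before that of RefSeq, and for Herc6 it is the RefSeq start, a few bases before that of Ensembl. Capitals mark matches to the core of the element, which is GAAA, any 2 bases and GAAA again, searched on both strands together with the gamma-activated site, TTC, any 3 bases and GAA.
Isg15, chr4:156200819-156200968, minus strand: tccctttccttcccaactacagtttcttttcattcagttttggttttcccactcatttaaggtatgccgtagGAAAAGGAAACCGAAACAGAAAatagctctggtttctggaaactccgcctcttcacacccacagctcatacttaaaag
Uba7, chr9:107975355-107975504, plus strand: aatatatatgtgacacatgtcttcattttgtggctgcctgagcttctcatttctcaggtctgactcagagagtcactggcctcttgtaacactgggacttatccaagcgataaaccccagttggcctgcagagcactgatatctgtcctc
Ube2l6, chr2:84798678-84798827, plus strand: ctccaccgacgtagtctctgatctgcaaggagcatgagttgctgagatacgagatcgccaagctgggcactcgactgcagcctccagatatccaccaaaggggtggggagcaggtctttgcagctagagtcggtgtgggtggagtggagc
Herc6, chr6:57580842-57580991, plus strand: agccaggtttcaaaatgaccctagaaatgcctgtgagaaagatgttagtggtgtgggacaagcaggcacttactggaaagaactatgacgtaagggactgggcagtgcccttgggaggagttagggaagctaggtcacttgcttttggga

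Isg15 held 3 matches to the element that overlap each other, in the run of capitals from base 78 to base 57 before its start. In the 300 bases of each table entry, from 250 before to 50 after the start, the element was found at 3.44% of 32851 promoters and the gamma-activated site at 8.30%. Neither motif was found, in these letters, in the entries of the other 3 genes, and the gamma-activated site was not found in that of Isg15.

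All 5 genes were higher with the inhibitor, by 2.12-fold to 9.04-fold. All 5 passed edgeR's quasi-likelihood test at an adjusted p under 0.05 (Benjamini-Hochberg over 14443 tested genes), where 18.7% of tested genes were called higher and 18.1% lower. Every FABPi library lay above every control library for each of the 5, which held for 17.7% of tested genes. The median log2 fold change was 1.58 for the 5 and 0.007 for all tested genes. All 5 also rose at least 2-fold, as did 2.46% of tested genes. Together they took between 0.0465% and 0.0556% of all counts in FABPi and between 0.0151% and 0.0175% in control libraries.

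Isg15, the modifier itself, had the largest rise of the 5. It stood at 82.7, 77.4, 93.55 and 96.0 CPM in FABPi replicates 1 to 4 and at 12.6, 8.07, 8.89 and 9.38 CPM in control replicates 1 to 4. The groups were far apart, and control replicate 1 was the highest of its group. Its log2 fold change was 3.18 (SE 0.12, edgeR adjusted p = 5.42e-09), a 9.04-fold rise with a 95% interval of 7.54 to 10.8, and it was the 18th largest of all tested genes and the 6th of those that averaged 5 CPM or more.

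Uba7, the E1 that activates ISG15 by forming a thioester with it, had the highest CPM of the 5 genes and the smallest rise. Its values were 193, 219, 189 and 225 CPM in FABPi replicates 1 to 4, against 100, 94.7, 92.5 and 103 CPM in control replicates 1 to 4. Replicates 2 and 4 were the higher ones among FABPi libraries, and control libraries lay close together. The log2 fold change was 1.08 (SE 0.06, edgeR adjusted p = 1.19e-07), or 2.12-fold (95% interval 1.93 to 2.33).

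Ube2l6, the E2 that receives ISG15 from UBA7, stood at 66.6, 58.0, 62.5 and 66.1 CPM in FABPi replicates 1 to 4 and at 33.6, 24.6, 27.3 and 27.2 CPM in control replicates 1 to 4. The lowest FABPi library was well above the highest control library, replicate 1. The gene rose 2.25-fold (95% interval 1.98 to 2.56; log2 fold change 1.17, SE 0.08, edgeR adjusted p = 8.28e-07).

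Herc6, the ligase, was at 46.5, 53.5, 48.5 and 59.0 CPM in FABPi replicates 1 to 4, against 17.9, 15.9, 17.0 and 18.8 CPM in control replicates 1 to 4. As for Uba7, replicates 2 and 4 were the higher FABPi libraries and replicate 4 was the highest control library. The rise was 2.98-fold (95% interval 2.64 to 3.37; log2 fold change 1.58, SE 0.08, edgeR adjusted p = 5.33e-08).

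Usp18, the protease that strips ISG15 from its targets, was close to Isg15 in both size of change and pattern. It had 80.1, 78.6, 93.4 and 98.0 CPM in FABPi replicates 1 to 4 and 14.47, 8.65, 10.71 and 11.0 CPM in control replicates 1 to 4. Replicates 3 and 4 were the higher FABPi libraries and replicate 1 the highest control library for both genes. Usp18 rose 7.87-fold (95% interval 6.48 to 9.56; log2 fold change 2.98, SE 0.13, edgeR adjusted p = 1.61e-08).

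**Figure D1:**
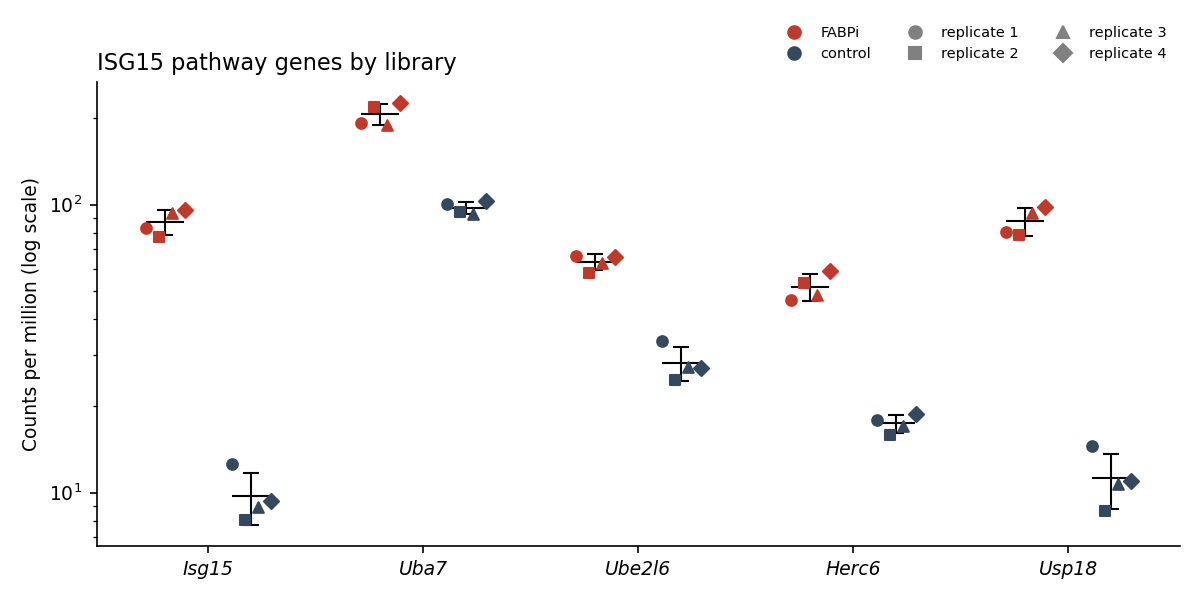
CPM (log scale) of the 5 pathway genes in each library, FABPi left of control, with marker shapes for the replicate number; horizontal lines are group means and bars the SD (n = 4). No control library reaches any FABPi library of the same gene, and the gap is widest for Isg15 and Usp18.

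The replicate numbers of the titles were treated as pairs for this step, not in the test above. Ratios of same-numbered libraries showed how the rise varied. The pair numbered 1 gave the smallest rise for each of the 5 genes: 6.56-fold for Isg15 against 9.59-fold to 10.5-fold in the other pairs, 5.54-fold for Usp18 against 8.72-fold to 9.08-fold, 2.60-fold for Herc6 against 2.85-fold to 3.37-fold, 1.98-fold for Ube2l6 against 2.29-fold to 2.43-fold, and 1.93-fold for Uba7 against 2.05-fold to 2.31-fold. Control replicate 1 was the highest of its group for Isg15, Usp18 and Ube2l6, but not for Uba7 and Herc6. Without it the log2 fold changes of Isg15 and Usp18 were 3.32 and 3.12. Ifng, the gene of interferon gamma, was also highest in the replicates numbered 1, at 16.5 CPM against 7.40 to 8.04 CPM in the other FABPi libraries and 8.09 CPM against 2.84 to 3.03 CPM in the other control libraries. Its part in the levels of the 5 genes was not tested.

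The members did not move by one common factor. The ratio of 2 genes within a library does not depend on how libraries are scaled. It was compared between the groups for all 10 pairs of members by a two-sided exact permutation test over 70 arrangements. That test does not use the replicate numbers, and its smallest possible p is 0.0286. For 9 of the 10 pairs the ratios did not overlap between the groups. Each of the 9 had an exact permutation p = 0.0286, or 0.0317 after Benjamini-Hochberg adjustment over the 10 pairs. Pairs share genes, so these results are not independent of each other. Against Isg15, the counts of Uba7 were 2.36 times as many in FABPi and 10.1 times as many in control libraries, a difference of -2.10 in the log2 ratio. For Ube2l6 over Isg15 these ratios were 0.726 and 2.91, and for Herc6 over Isg15 0.594 and 1.81. So the modifier gained on each of the 3 enzymes of its attachment, by 4.29-fold, 4.01-fold and 3.05-fold.

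Protease and modifier kept nearly the same ratio. Usp18 counts divided by Isg15 counts lay between 0.969 and 1.02 in FABPi and between 1.07 and 1.20 in control libraries, and the log2 ratio varied with an SD of 0.03 among FABPi libraries. The ratio was 0.872 times that of controls, the smallest shift of the 9 pairs (exact permutation p = 0.0286, adjusted p = 0.0317). Its adjusted p was 0.0635 when FABPi replicate 1, 2, 3 or 4 was left out in turn. Usp18 gained 3.74-fold on Uba7, 3.50-fold on Ube2l6 and 2.66-fold on Herc6.

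Among Uba7, Ube2l6 and Herc6 the shifts were smaller. Herc6 gained 1.41-fold on Uba7, and that ratio varied little within a group, from 0.241 to 0.262 in FABPi and from 0.168 to 0.184 in control libraries. Herc6 gained 1.32-fold on Ube2l6 (exact permutation p = 0.0286, adjusted p = 0.0317), but the adjusted p was 0.0635 without FABPi replicate 2 or 4 and without control replicate 1, 2, 3 or 4, each left out alone. Ube2l6 over Uba7 was the pair whose ratios overlapped between the groups, with values of 0.265 to 0.345 in FABPi and 0.260 to 0.335 in control libraries and a log2 difference of 0.10 (exact permutation p = 0.429, adjusted p = 0.429). Within the same-numbered pairs Ube2l6 rose slightly more than Uba7 in all 4, by 1.98-fold against 1.93-fold, 2.36-fold against 2.31-fold, 2.29-fold against 2.05-fold and 2.43-fold against 2.19-fold. The two-sided exact sign-flip permutation test over these pairs gave p = 0.125, the smallest that 4 pairs allow and the same as for the other 9 ratios.

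**Figure D2:**
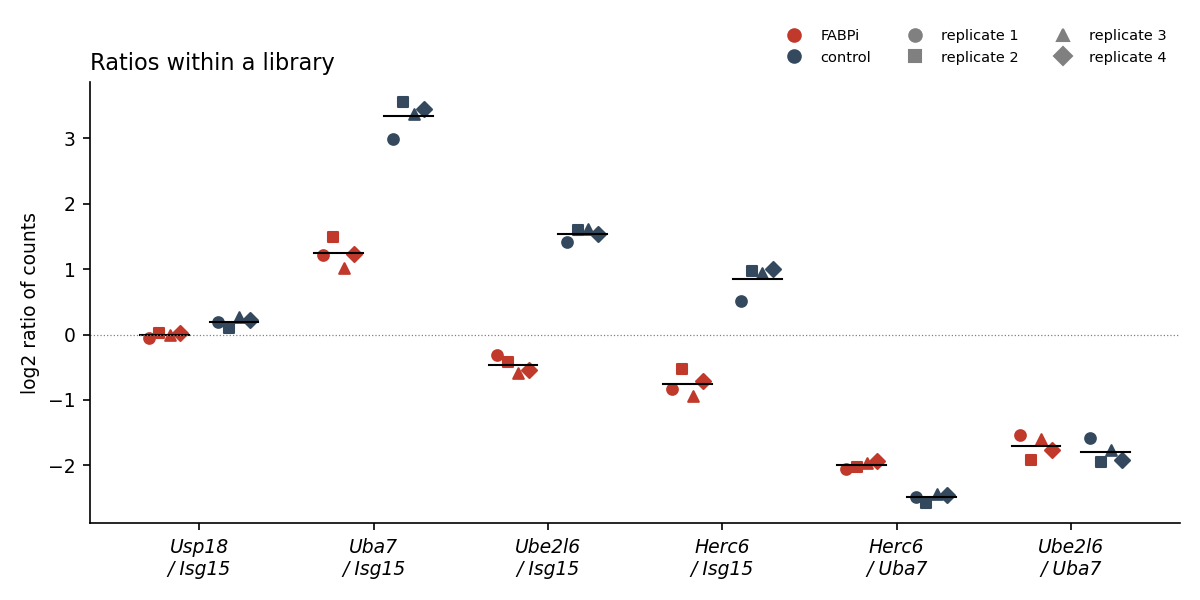
Log2 ratio of the counts of 2 genes within each library for 6 of the 10 pairs, FABPi left of control; marker shapes give the replicate number and black lines the group means. Ratios to Isg15 fall with the inhibitor for Uba7, Ube2l6 and Herc6, while Usp18 over Isg15 shifts slightly and Ube2l6 over Uba7 overlaps between the groups.

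Levels were compared between genes per length of annotated exons, as RPKM, the CPM divided by exon length in kilobases. In FABPi libraries Isg15 stood first at 116 ± 11.7 RPKM, followed by Ube2l6 at 31.7 ± 1.99, Usp18 at 31.4 ± 3.46, Uba7 at 30.9 ± 2.68 and Herc6 at 5.59 ± 0.599 RPKM (SD, n = 4). The levels of Ube2l6, Usp18 and Uba7 overlapped there. In control libraries the order was Uba7 at 14.6 ± 0.700, Ube2l6 at 14.1 ± 1.92, Isg15 at 12.9 ± 2.63, Usp18 at 4.02 ± 0.865 and Herc6 at 1.87 ± 0.135 RPKM (SD, n = 4). There the first 3 overlapped, while Usp18 and Herc6 each lay apart from their neighbours. The exon lengths join all annotated transcripts, from 756 bases for Isg15 to 9292 for Herc6, and so can understate genes with many unused exons.

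**Figure D3:**
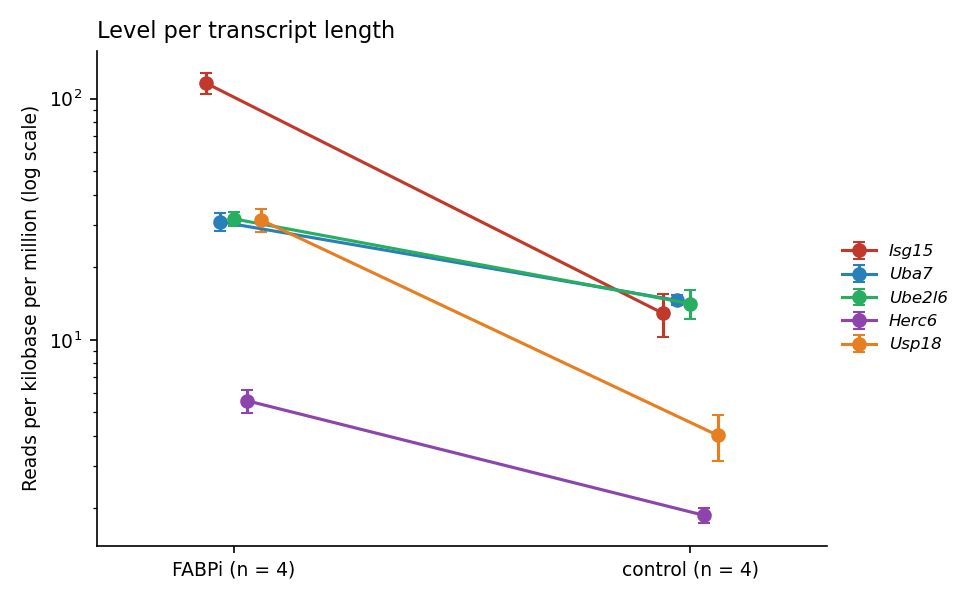
Mean level per exon length (RPKM, log scale) of the 5 genes in FABPi and control libraries; bars are the SD (n = 4). Isg15 stands above the other 4 in FABPi libraries and among Uba7 and Ube2l6 in control libraries, and Herc6 is lowest in both.

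Each of the 5 genes had the largest log2 fold change among the tested members of its own family. Their called relatives past 1.5-fold were Ubd, Usp27x and Usp11, which rose, and Ube2f, which fell. Of 10 tested E1 enzymes, Uba7 rose most; Nae1, which serves NEDD8, rose 1.17-fold, and Uba2 and Sae1, the 2 subunits of the SUMO E1, fell (log2 fold change -0.25 and -0.14). The log2 fold changes of the ubiquitin E1 genes were -0.11 for Uba1 (95% interval -0.23 to 0.003, edgeR adjusted p = 0.116) and 0.00 for Uba6 (95% interval -0.10 to 0.09, adjusted p = 0.944). In all, 3 of the 10 E1 genes were higher and 2 lower, where 18.7% of all tested genes were higher and 18.1% lower. Only 1 E1 gene was lower without FABPi replicate 2 or 4 or control replicate 3. Per length Uba7 ranked 4th of the 10 in both groups, far below Uba1 (230 RPKM in FABPi and 249 RPKM in control libraries).

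Among 33 tested E2 genes 4 were higher and 10 lower, beside 18.7% higher and 18.1% lower of all tested genes. Ube2l3, the closest relative of Ube2l6 and an E2 of ubiquitin, was slightly lower, by -0.17 on the log2 scale (95% interval -0.30 to -0.04; edgeR adjusted p = 0.0403), with overlapping groups. Per length Ube2l6 lay above it in FABPi libraries (31.7 against 23.3 RPKM) and below it in control libraries (14.1 against 26.2 RPKM). The other called E2 genes with large changes were Ube2f, an E2 of NEDD8, which fell 1.88-fold, and Ube2t and Ube2c, at log2 fold changes of -0.51 and -0.29. With the replicate block 9 E2 genes were higher; 2 were higher without FABPi replicate 2 or 4 or control replicate 2, and 5 lower without FABPi replicate 2 or 4 or control replicate 3.

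Of the 5 HERC genes 4 were higher, as were 18.7% of all tested genes. Beside Herc6, the large HERC ligases Herc1 and Herc2 rose 1.29-fold and 1.26-fold and Herc3 rose 1.18-fold. No change was detected for Herc4 (log2 fold change -0.02, 95% interval -0.10 to 0.06, edgeR adjusted p = 0.726). Even after its rise Herc6 was the lowest of the 5 per length, at 5.59 RPKM in FABPi libraries, below Herc1 at 6.51 RPKM. Of 42 tested USP proteases 15 were higher and 5 lower, beside 18.7% higher and 18.1% lower of all tested genes. After Usp18 came Usp27x (1.69-fold), Usp11 (1.51-fold) and Usp25 (1.40-fold), all higher. Usp18 ranked 8th of the 42 per length in FABPi and 33rd in control libraries. Without FABPi replicate 2 or 4 or control replicate 2, 3 USP genes were lower, and with the replicate block 9.

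Of 20 tested ubiquitin-like modifiers 4 were higher and 5 lower, where 18.7% of all tested genes were higher and 18.1% lower. After Isg15 the largest rise was that of Ubd, which encodes the interferon-inducible modifier FAT10, built like ISG15 of tandem ubiquitin-like domains, at 2.24-fold (5.60 CPM in FABPi and 2.53 CPM in control libraries, edgeR adjusted p = 0.00292). Gabarapl2 and Map1lc3b, modifiers of the autophagy membrane, fell (log2 fold change -0.34 and -0.30). Isg15 ranked 4th of the 20 per length in FABPi libraries and 15th in control libraries. Without FABPi replicate 2, 3 of these genes were lower, and with the replicate block 9.

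**Figure D4:**
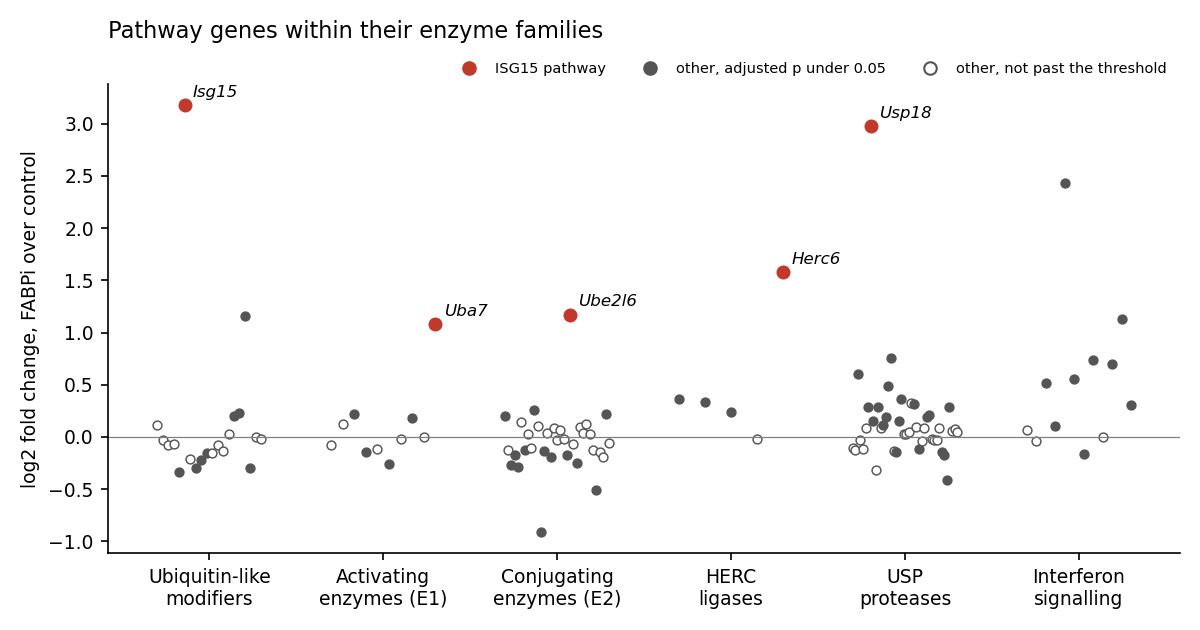
Log2 fold change (FABPi over control) of each tested gene in 5 families and in the list of interferon signalling; red points are the 5 pathway genes, filled grey points other genes at an adjusted p under 0.05 and open points the rest. Each red point lies above every other gene of its family.

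A list of 12 genes reported to work with ISG15 (11 tested) gave 4 higher and 2 lower, where 18.7% of all tested genes were higher and 18.1% lower. The ligase gene Trim25, itself reported as an ISG15 ligase, rose 1.80-fold, to 229.5 CPM in FABPi against 127 CPM in control libraries (edgeR adjusted p = 6.54e-08). Arih1, also reported as an ISG15 ligase, did not pass, at 0.03 on the log2 scale (95% interval -0.05 to 0.11; edgeR adjusted p = 0.532). Usp16, a protease reported to remove ISG15, rose 1.22-fold and the E2 gene Ube2e2 1.20-fold. Itgal, a chain of LFA-1, which is reported as a receptor of secreted ISG15, rose 1.12-fold. Skp2, part of a ubiquitin ligase that acts on USP18, had a log2 fold change of -0.18 (adjusted p = 0.0286), and Usp5 fell by 0.18 on the log2 scale. Of these, 1 gene was lower without a filter on low counts and also without FABPi replicate 2, 3 or 4 or control replicate 2 or 3, and 4 were lower with the replicate block.

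Among 12 genes of the signalling chain that induces the pathway, 8 were higher and 1 lower, with a median log2 fold change of 0.41. Over all tested genes 18.7% were higher and 18.1% lower. Irf7, a transcription factor of the interferon response, rose 5.38-fold, to 159 CPM in FABPi against 29.6 CPM in control libraries (edgeR adjusted p = 1.19e-09). The ISGF3 parts Stat2 and Irf9 rose 2.19-fold and 1.47-fold, and Socs1, a feedback inhibitor, 1.67-fold. The receptor genes had log2 fold changes of 0.07 for Ifnar1 (95% interval -0.06 to 0.20, adjusted p = 0.392) and -0.03 for Ifnar2 (95% interval -0.16 to 0.09, adjusted p = 0.664). Jak1 was lower (log2 fold change -0.16).

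Interferon genes themselves were near the limit of detection. The 20 type I and type III genes of the list together had between 17 and 32 counts per FABPi library and between 2 and 8 per control library, and 8 of them had none at all. Ifnb1 had 2, 4, 4 and 1 counts in FABPi replicates 1 to 4 and 1, 0, 0 and 1 in control replicates 1 to 4. These genes were too low for the filter of the main test. Without that filter Ifna4 (27 counts in FABPi and 1 in control libraries) and Ifnl2 (37 and 8 counts) passed, at edgeR adjusted p = 0.000285 and 0.00637; both were named after their values were seen, and the interferon alpha genes are near-identical copies whose reads can be split. Ifng, which passed the filter, was 2.42-fold higher (adjusted p = 0.0148) with overlapping groups, and its adjusted p was 0.0511 without control replicate 2 and 0.0516 without control replicate 3.

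For each member the 3 nearest profiles were sought among 9537 other named genes that averaged 5 CPM or more, by the root mean square difference of log2(CPM + 0.5), less the control mean, over the 8 libraries. Because of the added 0.5, genes of low level look less changed on that scale than by their fitted fold. The nearest to Isg15 were Rsad2 (0.07), Ifit3 (0.11) and Ifit3b (0.17), and the nearest to Usp18 were Rsad2 (0.12), Oasl2 (0.13) and Plaur (0.14). The place of Rsad2 rests on the added 0.5: its fitted log2 fold change was 3.72, from 9.67 CPM in FABPi against 0.743 CPM in control libraries, while Ifit3, at 3.13, was nearer by fold to Isg15. Rsad2, Ifit3b, Plaur and Ccl20 averaged under 5 CPM in control libraries and reached that mean through the FABPi libraries. Ccl20, named below beside Ube2l6, stood at 7.79 CPM in FABPi and 3.23 CPM in control libraries. Its fitted log2 fold change was 1.28, against 1.17 for Ube2l6. Isg15 and Usp18 themselves differed by 0.14. Uba7 lay next to Samd9l (0.04), Stat2 (0.06) and Trafd1 (0.07), and Herc6 next to Trim30a (0.10), Hap1 (0.10) and Tlr7 (0.10). Ube2l6 lay next to Ccl20 (0.07), Sdc3 (0.09) and Il12rb2 (0.09), a chemokine, a cell-surface proteoglycan and a chain of the IL-12 receptor, and differed from Uba7 by 0.16. The other 8 pairs of members differed by 0.31 to 1.46.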

How the data were processed

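The deposited files hold, for each of 8 libraries, counts of reads per Ensembl gene that the authors did not normalize. The submitters' processing notes name featureCounts, STAR, deepTools and DESeq2, and GRCm38 as the build; versions, roles, strand setting and annotation release are not given in the sources used here. Per the labels' protocols, libraries came from a stranded mRNA kit and were read on an Illumina HiSeq.

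Symbols and exons came from GENCODE M21 (GRCm38), which matched 53360 of 53465 IDs. Genes were tested with edgeR 4.0.16 in R 4.3.3 (filterByExpr defaults, TMM, quasi-likelihood F-test on treatment alone, 6 residual degrees of freedom per gene before moderation, Benjamini-Hochberg over 14443 genes, threshold 0.05). Every adjusted p of a gene is from this test, unless an alternative, a missing filter or a left-out library is named beside it. CPM uses TMM-adjusted library sizes, SEs derive from the F statistic, and folds are fitted values. The test was checked on simulated counts. Counts of 2 members were compared as log2 ratios with 0.5 added. Alternatives used DESeq2 1.42.0, limma-voom 3.58.1, other scalings, no filter, glmTreat at 1.5-fold, a replicate block and each library left out.

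Deviations from the group mean of same-numbered libraries correlated across genes at 0.524, 0.214, 0.200 and 0.390 (numbers 1 to 4). Libraries of unlike number ranged from -0.405 (FABPi 1 with control 4) to 0.285 (FABPi 2 with control 4). The latter is above the values of numbers 2 and 3. Each same-numbered value is over 0.1, but the labels do not say that the numbers mark pairs. The main test leaves them out, so its adjusted p values and shares of called genes ignore any pairing. With the replicate block 3845 tested genes were higher and 3728 lower, against 2694 and 2617 in the main test. Pairs were used only for the same-numbered ratios, the sign-flip test and that block. Replicates differed by more than sampling noise (chi-square per degree of freedom 3.08 to 24.2), and none was counted as a duplicate.

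The members and lists were chosen with earlier results of these data known. Named genes are the members, up to 4 called genes per list by size, a preset few such as Trim25 and Ube2l3, genes overlapping members, and the 3 nearest profiles of each member. Sae1, Usp5, Jak1, Pcna, Hif1a, Ifna4 and Ifnl2 are outside that rule, picked once their values were known. All fixed list genes matched an ID; some genes that the rule would name are not reported here.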

Additional observations from a re-analysis of the deposited data

Results flagged for a closer look

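The log2 ratio of Herc6 to Isg15 counts in control replicate 1 was 0.508, while the other control libraries reached up to 1.00. The gap to its nearest neighbour was 0.866 of the group's range over the 4 samples, above Dixon's 95% critical value. This library had the highest Isg15 level of the controls (12.6 CPM) and a Herc6 level within their range (17.9 CPM). In all, 30 groups of 4 values were examined, and chance flags about 1 in 20.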

How the results depend on the processing

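All 5 members stayed higher and past the threshold under each of the 15 alternatives, with log2 fold changes of 3.09 to 3.32 for Isg15, 1.04 to 1.12 for Uba7, 1.11 to 1.26 for Ube2l6, 1.51 to 1.62 for Herc6 and 2.86 to 3.12 for Usp18; the highest adjusted p was 9.70e-05. The replicate block changed no member's call. The median log2 fold change of all tested genes was at most 0.03 under each scaling.

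When a change of more than 1.5-fold was required, 342 genes were higher and 195 lower, and the counts of the lists were smaller because the threshold is stricter. The higher and lower genes were then 1 and 0 for E1, 1 and 1 for E2, 2 and 0 for USP, 1 and 0 for modifiers, 1 and 0 for ISG15 partners, 5 and 0 for reported ISG15 targets and 2 and 0 for interferon signalling, with 1 HERC gene and 0 interferon genes higher. With the replicate block 9 E2 genes were higher, and 4 partners, 9 USP genes and 9 modifiers were lower. Of all tested genes 3845 were then higher and 3728 lower. Without a filter on low counts 1 partner and 3 USP genes were lower and 3 interferon genes higher. The cause of these shifts was not tested.

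Leaving out 1 library at a time gave 1 to 2 lower E1 genes, and 2 to 4 higher and 5 to 11 lower E2 genes. It gave 1 to 3 lower partners, and 7 to 9 higher and 2 to 5 lower targets. Lower USP genes numbered 3 to 7, lower modifiers 3 to 7 and higher interferon genes 0 to 1. The log2 ratio differences then ranged from 0.33 to 0.47 for Herc6 over Ube2l6 and from -0.23 to -0.18 for Usp18 over Isg15.

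For ratios of members the replicate block allows only a sign-flip permutation test over 4 pairs, whose smallest p is 0.125, so none of the 10 could pass; each had that p. The differences are the same by construction: -2.10 for Uba7, -2.005 for Ube2l6, -1.61 for Herc6 and -0.20 for Usp18 over Isg15, 0.49 for Herc6 and 1.90 for Usp18 over Uba7, 0.40 for Herc6 and 1.81 for Usp18 over Ube2l6, 1.41 for Usp18 over Herc6, and 0.10 for Ube2l6 over Uba7. With 5 reads added in place of 0.5, the same 9 pairs passed.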

Other observations

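Among 18 genes whose proteins have been reported to carry ISG15, 10 were higher and 4 lower, with a median log2 fold change of 0.11. Of all tested genes 18.7% were higher and 18.1% lower, with a median of 0.007. The largest rises were those of 4 interferon-induced antiviral genes: Mx1, a GTPase (16.9-fold), Ifit1, which binds viral RNA (7.19-fold), and the RNA sensors Ifih1 (4.05-fold) and Ddx58 (3.23-fold). Other members moved less: Pcna, the sliding clamp of DNA replication, was lower (log2 fold change -0.33, edgeR adjusted p = 0.00362), and Hif1a rose 1.26-fold. The count of higher genes in the list was 7 to 9 with 1 library left out at a time, and 8 without a filter on low counts. Trp53 and Irf3 were among the 10 at edgeR adjusted p = 0.0497 and 0.0431. Without FABPi replicate 2 or 4 or control replicate 3, 2 of the list were lower.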
